A study of Mus musculus with 4 samples.

Results

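Among 3671 barcodes of clusters of attached cells (multiplets) from mouse small intestinal epithelium, 221 held at least 300 UMIs of Lyz1, the Paneth cell lysozyme, per 10000 UMIs of the barcode. They are called Paneth-rich multiplets here and made up 6.02% of intestinal multiplets (5.27 to 6.84) and 221 of the 19763 barcodes with counts in the series. A UMI is a molecular tag that marks 1 captured RNA molecule, and intervals are exact 95% intervals that cover counting error only. The barcodes were chosen by their Lyz1 share, so the level of Lyz1 and of RNA that comes with it is a description. The groups compared are barcodes of whole libraries, and a barcode with fewer cells of a type and one with less RNA per cell cannot be told apart. All groups share the inbred C57BL/6J mouse strain, and the labels give neither a treatment nor an age. The Paneth-rich multiplets were set against the 3450 other multiplets of the same library and against the 88 barcodes that the authors called Paneth in the library of single intestinal cells (singlets). Tissue was taken apart mechanically and with enzymes, and 3′ ends of transcripts were counted. Each library stands alone and the labels name no animals, so no test was possible. The sources used here do not say how multiplets were separated from singlets, and the 2 lung libraries of the series were not analysed here.

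Paneth cells lie at the base of the small intestinal crypts, wedged between the stem cells that renew the epithelium. They store antimicrobial proteins in granules, chiefly alpha-defensins and lysozyme, and they also give stem cells signals such as the Wnt3 ligand, the Notch ligand Dll4 and the growth factor Egf. Alpha-defensin genes form a large cluster of near-copies whose promoters are known targets of Wnt signalling through Tcf factors in mouse Paneth cells.

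The defensins Defa21 and Defa22 set Paneth-rich multiplets apart from Paneth singlets most plainly among the abundant Paneth genes, and Defa30 differed the other way. Defa22 lies at chr8:21162277-21163249, Defa21 at chr8:21025545-21026516 and Defa30 at chr8:21134642-21135598, all on the plus strand of build GRCm38 (the mm10 assembly) in the GENCODE vM21 annotation. The 250 bases upstream of the RefSeq starts of Defa22 (chr8:21162027-21162276) and Defa30 (chr8:21134400-21134649), plus strand, are shown because they let the promoters of that pair and of a defensin outside it be compared. Capitals mark ATCAAAG, a core motif of Tcf factors.
Defa22: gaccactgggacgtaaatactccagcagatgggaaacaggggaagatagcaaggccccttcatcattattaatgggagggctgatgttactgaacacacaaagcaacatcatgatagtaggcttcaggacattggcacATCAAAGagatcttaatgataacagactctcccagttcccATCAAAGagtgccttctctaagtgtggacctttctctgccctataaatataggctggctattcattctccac
Defa30: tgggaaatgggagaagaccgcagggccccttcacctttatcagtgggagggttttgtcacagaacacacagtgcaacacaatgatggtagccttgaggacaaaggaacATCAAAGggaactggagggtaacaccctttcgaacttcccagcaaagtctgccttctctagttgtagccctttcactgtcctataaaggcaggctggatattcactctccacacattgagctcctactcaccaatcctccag
The same stretch of Defa21 (chr8:21025295-21025544, plus strand) had all 250 of its 250 bases identical to that of Defa22. The Defa30 stretch had 173 identical bases over an aligned length of 280 (61.8%), with gap positions counted as differences. The 2 stretches are offset, since that of Defa30 ends past its GENCODE start, so this share understates the identity of the bases that both cover. ATCAAAG or its reverse complement CTTTGAT occurred in 13 of the 16 alpha-defensin promoters matched by symbol in the RefSeq table (GRCm38.p6), 2 times each for Defa21 and Defa22 and 1 time for Defa30. Of 12 other Paneth product promoters matched, 1 held it, that of Reg3g, and Lyz1 had no match in this window. Over all 32851 promoter stretches of the table, 3.21% held the motif. A match describes the letters and is not evidence of binding.

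Lyz1 was used by the rule, so its levels describe the split, and the label is read from Defa24. Lyz1 stood at 305 to 1755 UMIs per 10000 in Paneth-rich multiplets with a median of 767, against 0 to 299 with a median of 1.07 in other multiplets and 108 to 1359 with a median of 635 in Paneth singlets. The 3 barcodes just inside the limit had 305, 306 and 308, and the 3 just outside had 299, 298 and 296. A further 47 multiplets lay between 150 and 300, 80 between 300 and 600, and 3293 were under 30. Paneth-rich multiplets made up 10.6% of the UMIs of the multiplet library and 93.4% of its Lyz1 UMIs. Defa24, the second marker, which the rule did not use, stood at 417 to 4303 UMIs per 10000 with a median of 2627 in Paneth-rich multiplets, against 0 to 4642 with a median of 3.25 in other multiplets. The ranges of Defa24 overlap between the groups. In singlets the same limit was passed by 81 of 88 Paneth cells, 9 of 985 goblet cells and 1 of 728 cells of the late-1 progenitor class, 91 of 5279 barcodes or 1.72% (1.39 to 2.11).

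Paneth products filled most of these barcodes. Lyz1, the alpha-defensins and other granule products (38 genes measured of 54 listed) took 9.29% to 89.8% of the UMIs of a Paneth-rich multiplet, with a median of 74.5%, against a median of 0.238% in other multiplets and 83.1% in Paneth singlets. The share passed 60% in 172 Paneth-rich multiplets and was under 30% in 16, and 26 other multiplets passed 30%. Depth differed with it. The median was 25886 UMIs per barcode (2610 to 50940) in Paneth-rich multiplets, 12046 in other multiplets and 25595 in Paneth singlets, while UMIs outside the products had medians of 4901, 11823 and 4560. The mitochondrial share of UMIs outside the products had a median of 4.21% in Paneth-rich multiplets, 4.87% in other multiplets and 2.17% in Paneth singlets. Of the 4 barcode sequences that the singlet and multiplet libraries of the intestine share, none was a Paneth-rich multiplet.

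**Figure D1:**
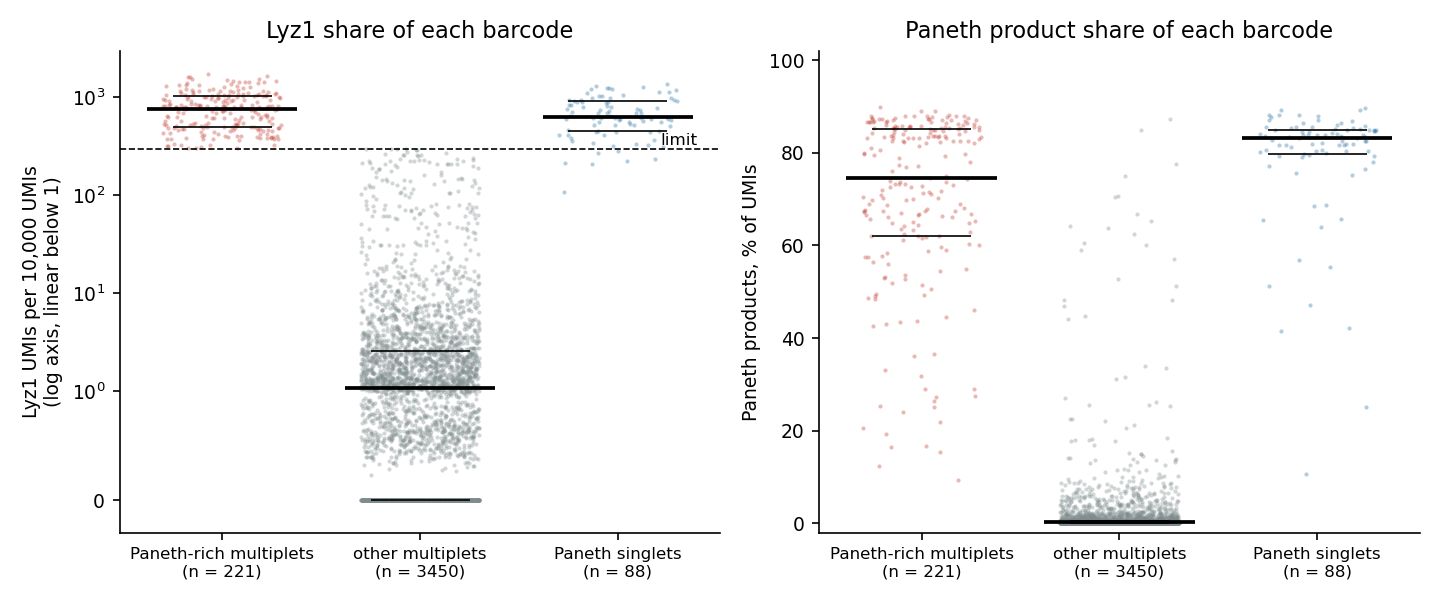
Lyz1 UMIs per 10000 UMIs (left, log axis that is linear below 1, dashed line at the limit of 300) and the Paneth product share of UMIs in percent (right) in each barcode of the 221 Paneth-rich multiplets, the 3450 other multiplets and the 88 Paneth singlets. Thick lines are medians (767, 1.07 and 635 for Lyz1; 74.5%, 0.238% and 83.1% for products) and thin lines quartiles.

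The comparison with other multiplets asks which RNA comes with Lyz1 in a cell cluster. On the scale of all UMIs, 171 of 11387 genes with at least 50 UMIs in either group were over 1.5-fold higher in Paneth-rich multiplets (1.5%) and 10640 were over 1.5-fold lower (93.4%). The median log2 ratio over these genes was -1.89, since the products take up the total. On the scale of UMIs outside the products the median was 0.05, with 2476 genes (21.7%) higher and 2133 (18.7%) lower. The rule used this contrast, so the counts describe the split made by Lyz1. Paneth products are therefore given per 1000000 UMIs of the group (CPM), and other genes as non-product CPM, per 1000000 UMIs outside the products.

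Paneth products led. Of the 22 alpha-defensins counted, of 40 listed, 22 were over 1.5-fold higher, with a median ratio of 71.1 against a median of 0.269 over all genes, and their summed CPM was 68.5 times that of other multiplets (68.3 to 68.7). Defa20 (519 against 38 UMIs) and Defa32 (129 against 15) reached the count limit only in Paneth-rich multiplets. They could only be called higher, so the count leans that way and their ratios are description. Defa21 stood at 53251 CPM in Paneth-rich multiplets against 354 in other multiplets, 150 times higher (148 to 153). Defa22 was 125 times higher (123 to 127) and Defa24, the most abundant, 60.4 times (264872 against 4387 CPM). Lyz1 itself was 119 times higher (118 to 121). Other alpha-defensins with high ratios were Defa35 at 125, Gm15292 at 123, Defa20 at 115, Defa29 at 88.9, Gm15293 at 84.9, Defa36 at 81.3, Defa26 at 78.6, Defa27 at 76.1, Defa32 at 72.5, Gm14851 at 69.7 and Defa3 at 66.5 times. Transcript ends of some of these genes are near-identical, so the division of UMIs among them is uncertain. The last 200 bases of the annotated transcripts aligned with 98.5% identity for Defa21 and Defa22, 97.5% for Defa24 and Defa30, and 74.1% for Defa22 and Defa24.

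Granule products outside the defensins went the same way in 10 of 13 genes. The antimicrobial ribonuclease Ang4 stood at 8165 CPM in Paneth-rich multiplets against 90.6 in other multiplets, 90.1 times higher (87.3 to 93.1). Mptx2, a pentraxin, was 56.7 times higher, Clps, the pancreatic lipase cofactor colipase, 54.8 times, the lectin Itln1 49.3 times and the protease Mmp7, which activates mouse defensins, 16.2 times. The 3 over 1.5-fold lower were the lectin Reg3b at 0.152 times (404 against 2654 CPM), the mucosal scavenger receptor Dmbt1 at 0.030 times and Mptx1 at 0.223 times, and Mptx1 was within 1.5-fold on the other scale (0.86). Reg3g, a bactericidal lectin close to Reg3b, was 1.54 times higher. The size of the product ratios depended on the Lyz1 limit that divides the groups. At limits of 150 and 600 UMIs per 10000, Mptx2 was 389 and 21.5 times higher, Defa22 316 and 32.4 times, Ang4 214 and 28.2 times, Defa24 153 and 20.7 times and Itln1 94.5 and 20.7 times.

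Outside the products, the genes with the highest ratios had 50 to 4604 UMIs over all Paneth-rich multiplets. Sntb1, a syntrophin, had 50 UMIs over all Paneth-rich multiplets and 4 over the much deeper other multiplets, 405 times higher per UMI outside the products (149 to 1542). Agt, angiotensinogen, stood at 445 non-product CPM in Paneth-rich multiplets against 5.27 in other multiplets, a ratio of 84.4. Bambi, a pseudoreceptor that dampens BMP and TGF-beta signals, was 81.7 times higher (73.5 to 91.0), the Wnt receptor Fzd9 78.7 times and Nkd1, a Wnt-induced antagonist of the pathway, 48.5 times. Tmed6, of the p24 cargo receptor family, was 54.1 times higher, Bhlha15 (Mist1), a transcription factor of secretory cells, 41.3 times, and Reg4, a secreted lectin, 32.4 times. Also among the highest were Samd5 (97.4 times), Mymx (97.1), Slc16a7, Cd244, Fam46c, Fyn (47.3), Pnliprp1, C4bp (41.8), Tesc and Copz2 (33.0). Sntb1, Mymx, Slc16a7, Fzd9, Cd244 and Nkd1 had under 50 UMIs in other multiplets. They passed the limit only through the group in which they are high, so their ratios are description. Against Paneth singlets on the same scale Bambi was at 0.57, Agt at 0.61, Tmed6 at 0.57 and Reg4 at 0.68 times the level, with Sntb1 at 1.38, Samd5 at 0.98, Fzd9 at 1.05 and Bhlha15 at 1.14 times.

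Among the signals that Paneth cells give, Wnt3 stood out. It reached 208 non-product CPM in Paneth-rich multiplets against 5.76 in other multiplets, 36.0 times higher (30.3 to 42.8), and 148 Paneth-rich multiplets had a Wnt3 UMI, 67.0% of them, against 5.94% of other multiplets. With each barcode thinned to 1500 UMIs outside the products, which left out no barcode, 31.7% of Paneth-rich multiplets, 1.10% of other multiplets, 44 of 88 Paneth singlets and 0 of 191 enterocyte singlets had a UMI. Dll4 was 2.63 times higher (1.69 to 3.93) on 26 UMIs, of which 53.8% lay in 10 barcodes, but at 0.685 times on the scale of all UMIs. Of the 6 signal genes counted, Bst1, an enzyme that makes cyclic ADP-ribose, was the 1 over 1.5-fold lower, with 2 UMIs and a ratio of 0.11, and Dll1, the other Delta ligand, was within 1.5-fold (0.715). Egf had 15 UMIs over all Paneth-rich multiplets, under the limit of 50, and was not counted.

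Secretory fate factors were over 1.5-fold higher in 7 of 10 genes, with a summed ratio of 2.33 (2.22 to 2.447). Besides Bhlha15, Sox9, which Paneth cells need to form, was 3.62 times higher, Foxa3 3.56 times, Spdef 2.71 times, Gfi1 2.47 times and Xbp1, the transcription factor of the unfolded protein response, 1.61 times. Neurog3, the factor that commits cells to the enteroendocrine lineage, had 0 UMIs in Paneth-rich multiplets and 124 in other multiplets. Of 17 genes of protein folding and the secretory pathway, 9 were higher and none over 1.5-fold lower, led by the endoplasmic reticulum co-chaperone Dnajb9 at 6.36 times and Herpud1, of protein disposal there, at 4.48 times, while the chaperone Hspa5 was at 1.26 times. Both directions depend on the scale. Per UMI of the whole barcode 6 of the 10 fate factors were lower and 1 was higher (0.607 times in sum), and 12 of the 17 folding and secretory pathway genes were lower and 1 was higher (0.395 times in sum). The counts outside the products lie on a background of 21.7% of all genes higher and 18.7% lower.

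Genes of the stem cells, the neighbours of Paneth cells, were higher per UMI outside the products and, in sum, lower per UMI of the whole barcode. Of 13 stem genes 12 were over 1.5-fold higher on the first scale, with a summed ratio of 2.27 (2.21 to 2.32), and the exception was Cdca7 at 1.37. With barcodes weighted equally the ratio outside the products was 1.57. On the scale of all UMIs the list stood at 0.591 times. Olfm4, a secreted glycoprotein of crypt base stem cells, had 2.31 times the level of other multiplets outside the products, Lgr5, the R-spondin receptor that marks stem cells, 5.64 times (4.64 to 6.82), Rgmb, a BMP co-receptor, 3.89 times and Gkn3 3.10 times. The Notch receptor Notch1 was 1.91 times higher and its target Hes1 was at 1.0 times, and 2 of the 6 Notch pathway genes counted were higher and 2 lower. Ephrin receptors and ligands, which keep Paneth and stem cells at the crypt base, were over 1.5-fold higher in 0 of 6 genes and lower in 3, with Efnb1 at 0.54 times and its receptor Ephb2 at 1.12 times.

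Most enterocyte and tuft cell markers were lower. Enterocyte markers were over 1.5-fold lower in 12 of 13 genes, with a summed ratio of 0.169 (0.162 to 0.177), and tuft cell markers in 9 of 10, with Dclk1, Trpm5 and Lrmp among those at 0 UMIs in all 221 Paneth-rich multiplets and Ptgs1 the exception at 1.84 on 5 UMIs. Cycling markers were lower in 11 of 14 genes with a summed ratio of 0.570, with the proliferation antigen Mki67 at 0.544 times. The lowest named genes were the xenobiotic enzymes Cyp3a11 (1 UMI against 1479) and Ugt2b5, the steroid enzyme Hsd3b3, the tuft cell marker Rgs13, the lectin Reg1 (57 against 37246 UMIs), Myl7, the chloride exchanger Slc26a3, the carbonic anhydrase Car4, the amino acid transporter Slc6a20a and the antimicrobial peptide gene Leap2. Of 12 enteroendocrine markers 7 were over 1.5-fold lower, 4 were within 1.5-fold and 1 was higher, with a summed ratio of 0.864 (0.811 to 0.919) that was 0.432 with barcodes weighted equally. The hormone genes Sst, Gcg, Cck, Pyy and Ghrl were at 0.0201 to 0.0683 times, but 83.0% to 100% of their UMIs in other multiplets lay in 10 barcodes.

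Goblet genes split. Spink4, a protease inhibitor that goblet and Paneth cells both make, was 9.66 times higher. Over 1.5-fold, 5 of the 12 genes were higher and 4 lower. The summed ratio was 1.59 (1.58 to 1.61) and the median ratio 0.85, so the sum and the median point in opposite directions. Per UMI of the whole barcode 9 were lower and 1 was higher, and the sum stood at 0.415 times. Muc2, the gel-forming mucin, was 1.52 times higher and had medians of 17.2 UMIs per 10000 outside the products in Paneth-rich multiplets and 12.0 in Paneth singlets. Zg16, a lectin of the mucus, was at 0.109 times, Fcgbp, a protein bound to mucus, at 0.153 times and Clca1, a mucus protease, at 0.0836 times. Zg16 reached 591 UMIs per 10000 outside the products in its highest Paneth-rich multiplet and 4433 in its highest other multiplet.

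Immune markers were near 0. The T cell list, with 4 of 9 genes measured, had 1 UMI over all Paneth-rich multiplets and 10 over other multiplets. The B and plasma cell list had 19 and 365. Other multiplets hold far more UMIs, so these counts do not compare levels. Per UMI outside the products the T cell ratio was 3.24 (0.0746 to 22.7), an interval that spans both directions. The B and plasma cell ratio was 1.68 (1.003 to 2.67). The stromal list had 22 UMIs, all of the 1 measured gene Vim, against 714, a ratio of 0.997 (0.621 to 1.52) outside the products. In singlets Vim had 1193 UMIs in the enteroendocrine class and at most 50 in any other class, so it does not mark stroma alone here. Of 7 myeloid markers only Lyz2, the macrophage lysozyme next to Lyz1 on chromosome 10, was counted, with 154 UMIs in Paneth-rich multiplets and 156 in other multiplets. Its transcript end is 91.2% identical to that of Lyz1 over the last 200 bases, so the division of UMIs between them is uncertain. Lyz2 was at 0.85 times the Paneth singlet level outside the products. Against other multiplets its ratio on the scale of all UMIs was 8.33, and 1.98 with barcodes weighted equally. The myeloid genes measured in both libraries summed to at most 11.7 UMIs per 10000 outside the products in a Paneth-rich multiplet and to 466 in the highest other multiplet.

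**Figure D2:**
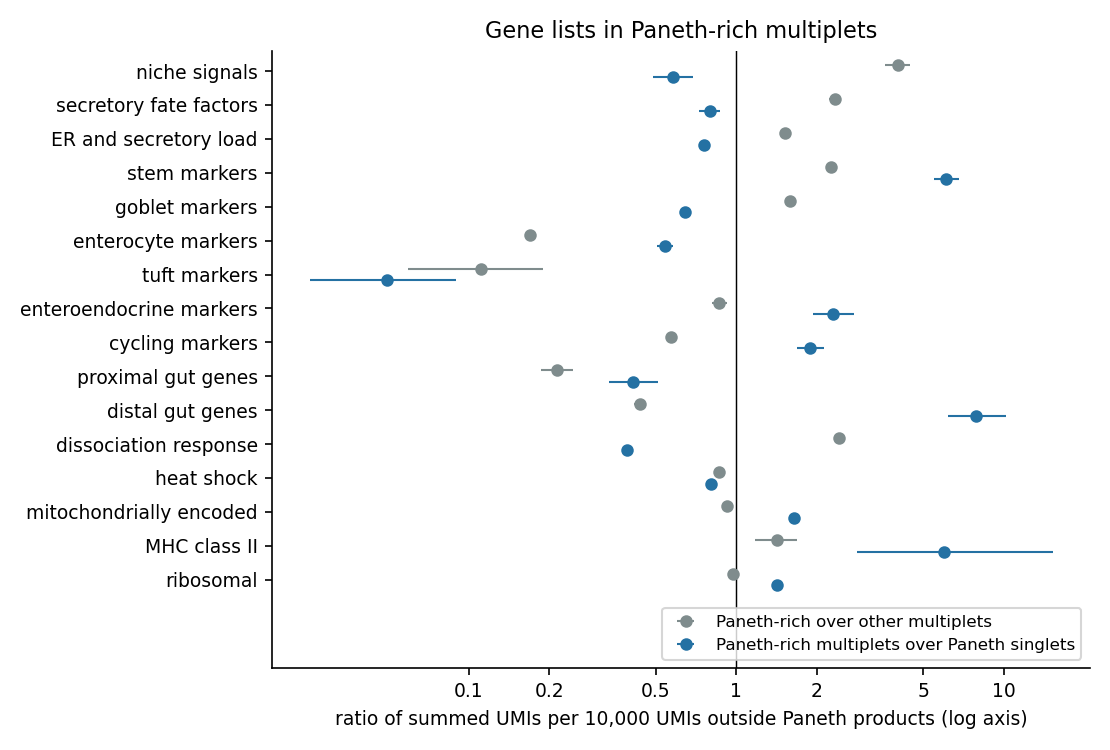
Ratio of summed UMIs per 10000 UMIs outside Paneth products for gene lists, in Paneth-rich multiplets over other multiplets (grey) and over Paneth singlets (blue), on a log axis with exact 95% intervals of counting error. Stem markers were at 2.27 and 6.09, the dissociation response at 2.43 and 0.390, heat shock genes at 0.859 and 0.804.

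The comparison with Paneth singlets asks what these multiplets hold beside the RNA of a Paneth cell. Genes of stem cells and of the cycling crypt were higher, and immediate early genes were lower. Of 4081 genes with at least 50 UMIs in either group, 517 (12.7%) were over 1.5-fold higher per UMI outside the products and 314 (7.69%) lower. The median of the log2 ratios was -0.01. On the scale of all UMIs 1318 (32.3%) were higher and 68 (1.67%) lower, with a median of 0.37. Paneth singlets held fewer UMIs in total. More genes could therefore reach 50 UMIs in Paneth-rich multiplets alone, which favours calls of higher. The groups come from separate libraries, so a difference between libraries and one between groups cannot be told apart. The mitochondrial share and the dissociation response, given above and below, moved with the groups, and their part in these differences was not tested.

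Stem genes were over 1.5-fold higher than in Paneth singlets in 9 of the 11 counted and none was lower, with a summed ratio of 6.09 (5.49 to 6.78) and a median of 3.64 against 0.993 over all genes. Genes such as Gkn3 and Ascl2 were counted only through the Paneth-rich multiplets, so the count leans to higher. The summed ratio takes in all 13 genes, counted or not. Olfm4 stood at 3548 non-product CPM in Paneth-rich multiplets against 267 in Paneth singlets, 13.3 times higher (11.1 to 16.0). Gkn3 had 126 UMIs in Paneth-rich multiplets and 0 in Paneth singlets, at least 13.9-fold higher when the Paneth singlets are set at a floor of 3 UMIs over the group, while the exact 95% interval of the ratio began at 11.1. Ascl2, a transcription factor of stem cells, had 91 UMIs against 2 and was 15.1 times higher (4.05 to 126), Slc12a2, a chloride cotransporter of the crypt base, 3.96 times and Lgr5 3.53 times (1.95 to 7.01). The others over the limit were Cdca7 (4.86), Axin2 (3.64), Rnf43 (1.81) and Smoc2 (1.55), while Rgmb was at 1.25 and Prom1 at 1.36.

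Other named genes with high ratios against Paneth singlets were Clca3b (10.1 times), Bex1 (7.71), the adhesion molecule Jaml (6.21), the growth regulator Igfbp4 (6.75), the G1 cyclin Ccnd2 (5.34), the urea cycle enzyme Cps1 (3.82) and the ketone body enzyme Oxct1 (3.81), besides Olfm4, Gkn3, Ascl2, Cdca7 and Slc12a2. The water channel Aqp4, the Wnt target Cd44 and the inositol phosphatase Minpp1 had 50 to 59 UMIs against 1 each, ratios of 19.5 (3.37 to 784), 17.5 (3.02 to 706) and 16.6 (2.84 to 667). Olfm4 and Slc12a2 reached the limit of 50 UMIs in both groups. Genes under it in Paneth singlets, among them Aqp4, Cd44, Minpp1, Gkn3 and Ascl2, passed through the Paneth-rich multiplets alone. Cycling markers were higher in 9 of 11 genes counted and lower in none, with a summed ratio of 1.89 (1.68 to 2.13). Top2a, which untangles replicated DNA, was 1.69 times higher, and Mki67 was 4.0 times higher (2.22 to 7.92), but 53.8% of its UMIs lay in 10 multiplets.

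Per barcode the stem genes were uneven. The summed stem list ran over 0 to 328 UMIs per 10000 outside the products in Paneth-rich multiplets with a median of 17.5, against 0 to 34.2 with a median of 6.50 in Paneth singlets. The upper quartile was 71.7 in Paneth-rich multiplets, above every Paneth singlet, while stem singlets had a median of 162. After thinning to 1500 UMIs outside the products, Olfm4 had a UMI in 58.8% of Paneth-rich multiplets (52.0 to 65.4), 37.1% of other multiplets, 15 of 88 Paneth singlets (9.87% to 26.6%) and 100% of stem singlets. In enterocyte singlets, which should lack it, the share was 5.24%. Without thinning the shares were 70.6% in Paneth-rich multiplets, 56.3% in other multiplets and 43.2% in Paneth singlets. Lgr5 was found in 11.3% of Paneth-rich multiplets, 3.25% of other multiplets, 4.55% of Paneth singlets and 26.4% of stem singlets at that depth, and in 0 of 191 enterocyte singlets, with an upper limit of 1.91%.

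**Figure D3:**
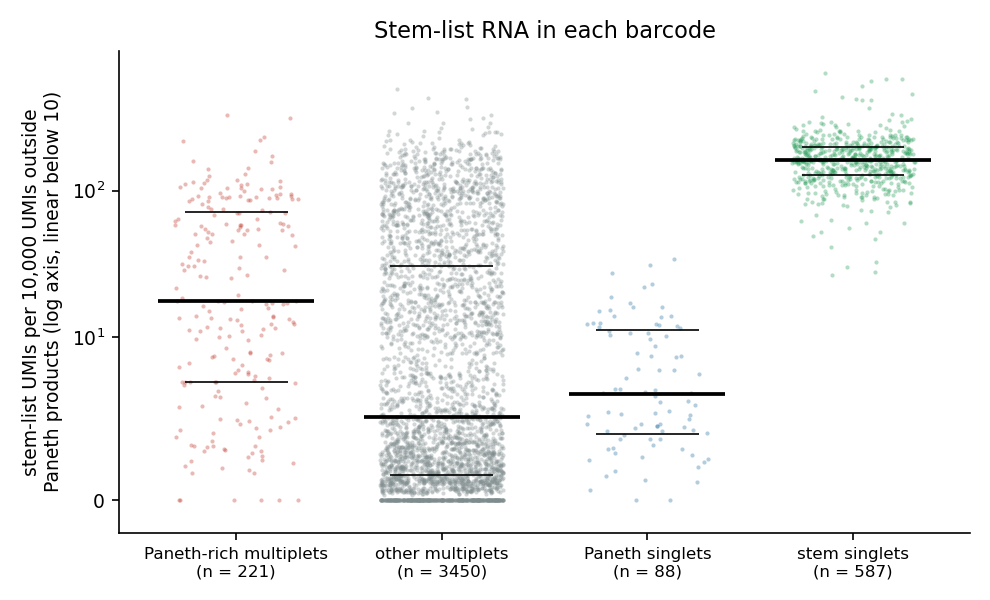
Summed UMIs of 13 stem genes per 10000 UMIs outside Paneth products in each barcode (log axis that is linear below 10), with medians as thick and quartiles as thin lines. Medians were 17.5 in Paneth-rich multiplets, 5.1 in other multiplets, 6.50 in Paneth singlets and 162 in stem singlets.

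Immediate early genes set the Paneth-rich multiplets below the Paneth singlets and, outside the products, above the other multiplets. All 11 immediate early genes of the dissociation response were over 1.5-fold lower than in Paneth singlets, with a summed ratio of 0.390 (0.377 to 0.405), and all 11 were over 1.5-fold higher than in other multiplets, with a summed ratio of 2.43 (2.37 to 2.49). Fos stood at 686 non-product CPM in Paneth-rich multiplets against 2084 in Paneth singlets and 268 in other multiplets. On the scale of all UMIs none of the 11 was higher than in other multiplets and 7 were lower, so that direction depends on the scale, and against Paneth singlets 10 of 11 were lower on it. Heat shock genes did not follow that order. Of 10 counted, 5 were over 1.5-fold lower than in Paneth singlets and none higher, with a summed ratio of 0.804 (0.779 to 0.831), while against other multiplets 1 was higher, 1 lower and 8 within 1.5-fold, with a summed ratio of 0.859 (0.844 to 0.875). The lowest named genes against Paneth singlets were the detoxifying enzyme Ephx1 (0.152 times), the cell cycle inhibitor Cdkn1a (0.192), complement factor I (Cfi, 0.204), the inducible heat shock proteins Hspa1a (0.208) and Hspa1b (0.280), Rhob (0.271), Dusp1 (0.273), Atf3 (0.302), Thbs1 (0.317) and Ier2 (0.319). The dissociation list had a median of 23.9 UMIs per 10000 in Paneth-rich multiplets and 144 in Paneth singlets, with ranges of 0 to 221 and 5.79 to 329 that overlap.

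Ribosomal and mitochondrially encoded genes were also higher than in Paneth singlets. The ratio of summed UMIs outside the products was 1.42 for ribosomal genes, with 27 of 76 over 1.5-fold higher and 1 lower, and 1.64 (1.61 to 1.67) for mitochondrially encoded genes, with 9 of 13 higher. Against other multiplets the ratios were 0.971 and 0.920. Of 16 folding and secretory pathway genes counted, 0 were over 1.5-fold higher than in Paneth singlets and 5 lower, Spink4 at 0.582 times and Wnt3 at 0.535 times (0.442 to 0.649).

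A few barcodes carried other lineages. Chgb, a granin of enteroendocrine granules, had 519 UMIs in Paneth-rich multiplets and 0 in Paneth singlets, at least 57.3-fold higher by the floor of 3 UMIs over the group with an interval that began at 46.4, but 8 multiplets held a UMI and 2 held 10 or more. Fabp6, the ileal bile acid carrier, had 1461 UMIs against 31, and 91.7% of them lay in 10 multiplets. The enterocyte markers summed to 0.542 times the Paneth singlet level, but to 0.85 times with barcodes weighted equally and 0.299 times at a Lyz1 limit of 600, and their median per barcode was 6.73 UMIs per 10000 outside the products in Paneth-rich multiplets against 5.28 in Paneth singlets. Chga and the MHC class II invariant chain Cd74 were concentrated in the same way and are listed apart from the named genes. On the low side Reg1, Klf2, Cyr61, Rbp2, Arg2, Adh6a, Gdf15, Dnajb1, Fabp1 and Cldn4 were set apart because over 50% of their UMIs in Paneth singlets lay in 10 barcodes.

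The makeup of the defensins differed within the group. Defa21 and Defa22 together were 0.0326% to 39.96% of the alpha-defensin UMIs of a Paneth-rich multiplet, with a median of 22.02% and quartiles of 3.07% and 28.7%, against 0% to 35.6% with a median of 0.293% in Paneth singlets. The share reached 10% in 148 of 221 Paneth-rich multiplets, 67.0% (60.3 to 73.1), and in 19 of 88 Paneth singlets, 21.6% (13.5 to 31.6). It was under 1% in 32 Paneth-rich multiplets and 57 Paneth singlets. Limits of 10% and 1% were chosen after the values were seen. Of the Paneth singlets that passed the same Lyz1 limit, 18 of 81 reached 10%. Of the 192 other multiplets with at least 100 alpha-defensin UMIs, 82 reached 10% (42.7%) and 80 were under 1%. Their median share was 2.87%. A share of 10% was thus not particular to Paneth-rich multiplets within the multiplet library.

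In pooled levels this appeared as 53870 CPM of Defa22 in Paneth-rich multiplets against 19769 in Paneth singlets, 2.72 times higher (2.70 to 2.75), and 2.68 times for Defa21. Defa35 (1.99), Ang4 (1.83), Gm15293 (1.79), Defa34 (1.76) and Nupr1, a stress-induced chromatin protein, (1.70) were higher too. Defa30 was at 0.564 times, AY761184 at 0.669, Gm14851 at 0.692 and Clps at 0.692 times, while Defa24 was at 0.859, Itln1 at 1.01 and Mmp7 at 0.989 times. Of 22 alpha-defensins counted, 9 were over 1.5-fold higher and 2 lower on the scale of all UMIs. Per UMI outside the products 5 were higher and 7 lower, with Defa22 at 2.10 and Defa21 at 2.06 times, and Ang4 (1.41), Nupr1 (1.31) and Defa34 (1.35) were within 1.5-fold. With Stem called by the mixture described next, the share of Defa21 and Defa22 had a median of 18.9% over 47 multiplets, and with Paneth alone called a median of 23.8% over 146.

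Across the 221 Paneth-rich multiplets Defa21 and Defa22 moved together, with a Pearson r of 0.92 (rho 0.93) on log2 UMIs per 10000 product UMIs. These points share 1 library and the transcript ends of both genes are near-identical. The share of Defa21 and Defa22 went with more Defa35 (r 0.69), Defa20 (0.65), Nupr1 (0.50) and Ang4 (0.41) and with less Defa24 (-0.70), Clps (-0.63), AY761184 (-0.63) and Onecut2 (-0.40), a transcription factor gene of the proximal intestine. The share had an r of -0.21 with the transcription factor gene Gata4 and -0.02 with the ileal Fabp6. It had an r of -0.03 with the stem weight and 0.08 with Osr2, a gene of the distal intestine. Defensin shares add to a fixed total, so a rise of the pair alone lowers the others. The region of the intestine that each barcode came from is not in the labels.

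**Figure D4:**
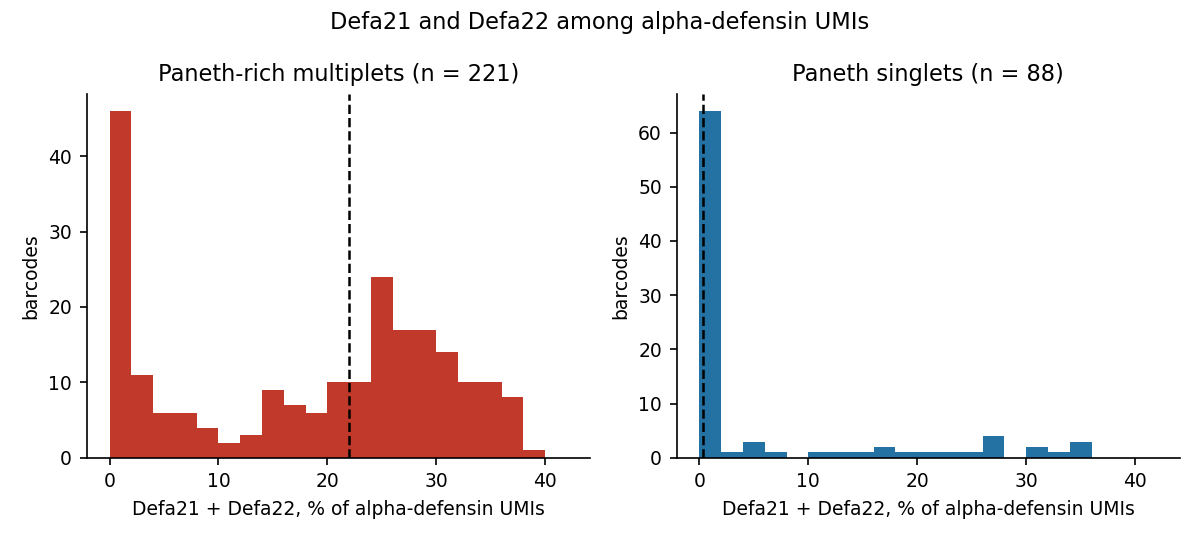
Number of barcodes by the share of Defa21 and Defa22 in alpha-defensin UMIs (bins of 2%), in 221 Paneth-rich multiplets (left) and 88 Paneth singlets (right), with dashed lines at the medians of 22.02% and 0.293%. Both panels have barcodes near 0 and barcodes over 20%, and the y axes differ.

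To read which cell types occur together, the UMIs of a barcode in 400 genes were divided among the profiles of the authors' 10 singlet classes. The UMIs given to a class were scaled up from these genes to its whole profile, and its weight is its share of the scaled sum. A class counted as called at a weight of at least 0.15. Of the 13 stem genes, 7 were among these 400. Paneth was called in 218 of 221 Paneth-rich multiplets, which follows from the rule, and in 56 of 3450 other multiplets. No other class was called in 146 (66.1%, 59.4 to 72.3), against 77 of 88 Paneth singlets (87.5%) that were held out of the profiles. At least 2 classes were called in 75 Paneth-rich multiplets, 33.9% (27.7 to 40.6), against 58.6% of other multiplets and 11 of 88 Paneth singlets, 12.5% (6.41 to 21.3).

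Stem was the class most often called beside Paneth. It was called in 47 Paneth-rich multiplets, 21.3% (16.1 to 27.3), against 587 of 3450 other multiplets (15.8 to 18.3) and 0 of 88 held-out Paneth singlets, for which the upper limit is 4.11%. Paneth with Stem was called together in 45, or 20.4% (15.3 to 26.3), of which 38 had no further class and 6 also had transit amplifying cells, the dividing descendants of stem cells. Transit amplifying was called in 26, 11.8% (7.83 to 16.8), against 37.3% of other multiplets and 4 of 88 Paneth singlets. Goblet was called in 9, 4.07% (1.88 to 7.59), against 31.6% of other multiplets and 2 of 88 Paneth singlets.

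Later classes were scarce. Early and late-2 progenitors were each called in 2 Paneth-rich multiplets and enterocyte and enteroendocrine cells in 1 each, while late-1 progenitors and tuft cells were called in 0 of 221, which allows a share of up to 1.66%. In other multiplets early progenitors were called in 38.8% and late-1 progenitors in 17.7%. The Lyz1 limit itself leaves out barcodes in which a Paneth cell is diluted by much other RNA. Of the 56 other multiplets with Paneth called, 24 had Stem as well.

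**Figure D5:**
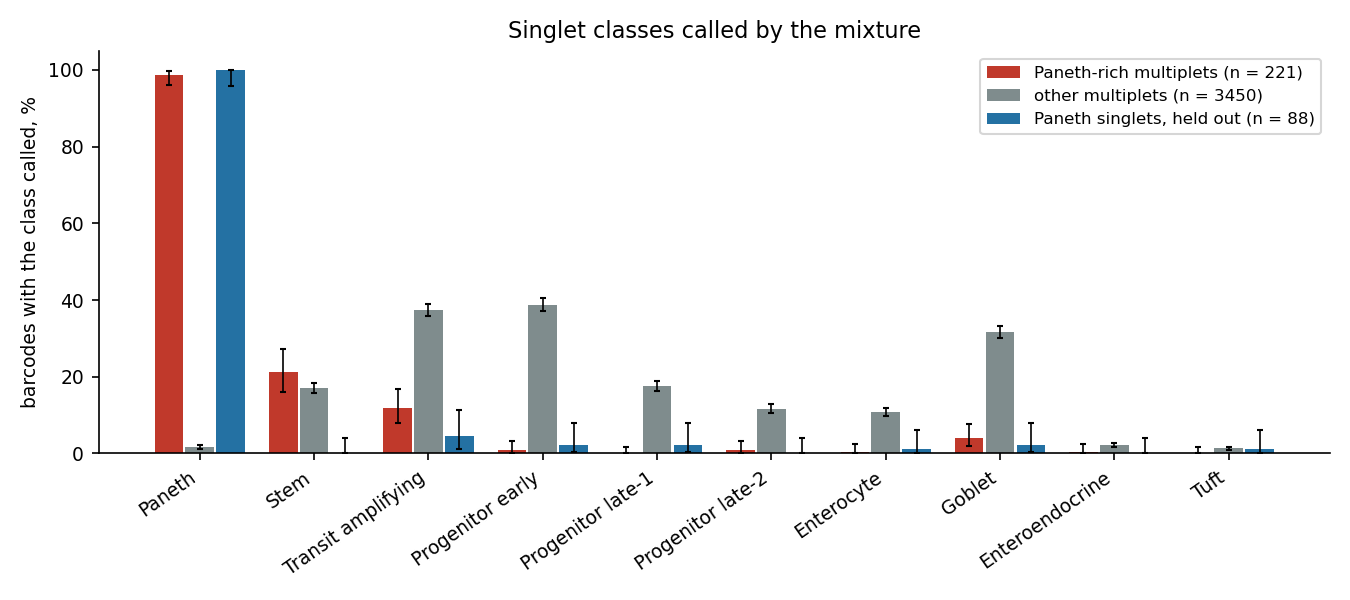
Share of barcodes in which each of 10 singlet classes was called, for 221 Paneth-rich multiplets (red), 3450 other multiplets (grey) and 88 held-out Paneth singlets (blue), with exact 95% intervals. Stem was called in 21.3% of Paneth-rich multiplets, 17.01% of other multiplets and 0 Paneth singlets, and transit amplifying in 11.8%, 37.3% and 4.55% in the same order of groups.

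Multiplets with Stem called had a median of 10977 UMIs (2610 to 38909) against 27547 (4953 to 50940) with Paneth alone, and products took a median of 52.7% of their UMIs against 83.6%. Their Wnt3 had a median of 0.59 UMIs per 10000 outside the products against 2.44, and their mitochondrial share outside the products a median of 5.43% against 3.70%. The 28 multiplets with another class but not Stem had a median of 26048 UMIs, 54.7% of product UMIs, 0.86 Wnt3 UMIs per 10000 and a mitochondrial share of 4.91%. These medians lay on the same side of Paneth alone as those with Stem called, though the depth was near that of Paneth alone. Product genes are among the genes of the mixture, so a second class and a lower product share are not independent measures. The 47 multiplets had Stem weights of 0.154 to 0.673 with a median of 0.242. Of the 16 Paneth-rich multiplets with under 30% of product UMIs, all 16 had at least 2 classes and 15 had Stem. Stem singlets had a median of 6199 UMIs and Paneth singlets of 25595, and the number of calls depended on the weight chosen. At a weight of 0.10 Paneth with Stem was called in 28.5% and at 0.25 in 9.05%, and among held-out Paneth singlets in 0 at both. With stem, transit amplifying and progenitor classes merged, Paneth with a crypt progenitor was called in 85 Paneth-rich multiplets, 38.5% (32.0 to 45.2), against 6 of 88 held-out Paneth singlets, 6.82% (2.54 to 14.3).

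Genes outside the mixture were last compared with what the fitted weights predict, taking the ratio of observed to predicted UMIs in Paneth-rich multiplets over that in other multiplets. A gene was taken with at least 200 UMIs observed or predicted in Paneth-rich multiplets and at least 200 observed in other multiplets. Of 1103 such genes, 26 (2.36%) were over 1.5-fold higher and 31 (2.81%) lower, with a median log2 of -0.02. Lbh, a transcription cofactor that Wnt signals induce, was highest at 2.450, with 491 UMIs observed and 276 predicted in Paneth-rich multiplets. It was followed by Oit1 (2.28), the thyroid hormone deiodinase Dio1 (2.18), the sterol synthesis enzyme Hmgcs1 (2.13), Car8 (2.09), AY036118 (2.01), the granule-associated GTPase Rab3d (2.0) and Phlda1 (1.84). The lowest were Cdkn1a at 0.328 (318 observed, 1036 predicted), Thbs1 at 0.460, Klf6 at 0.489, Smim24 at 0.507 and the co-chaperone Dnajb1 at 0.509. Oit1, Dio1, Hmgcs1, Car8 and Rab3d passed the limit in Paneth-rich multiplets only by their observed UMIs. Thbs1 and Klf6 passed it only by their predicted UMIs. The filter thus leaned to the side on which these genes lie, and their ratios are description. Predictions draw on the profiles of all the singlet classes, Paneth singlets among them. The stress genes Cdkn1a, Thbs1 and Dnajb1 were at 0.192, 0.317 and 0.294 times the Paneth singlet level outside the products. For Dnajb1, 51.5% of the Paneth singlet UMIs lay in the few barcodes richest in it. Whether the levels in Paneth singlets account for the place of these genes below prediction was not tested.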

How the data were processed

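For each library the authors deposited raw counts (UMIs of each gene in each barcode) and a table that holds a quality flag and, for singlets, a cell class. The submitters' processing notes name Cell Ranger 4.0.0 and mm10. The sources used here do not say how flags and classes were made. Intestinal counts covered 3671 multiplet barcodes (50645279 UMIs) and 5279 singlet barcodes (47764845 UMIs). No barcode was filtered further and no doublet caller was run, since multiplets are the object of study. The members and gene lists were chosen with earlier results of these data known. UMIs were summed per group, and ratios carry exact conditional binomial intervals and shares Clopper-Pearson intervals at 95%, which cover counting error only. A gene was called by size, at over 1.5-fold with at least 50 UMIs in either group. With 1 library per group no p-value was computed. Paneth products are Lyz1, the alpha-defensins and the granule list. Named genes are the 15 highest and 10 lowest ratios against other multiplets, the 10 highest and 10 lowest against Paneth singlets and the 8 highest and 5 lowest over prediction, at 20 CPM or more. Gm-numbered genes (except listed defensins), Rik, mitochondrial and receptor genes were left out, and genes with over 50% of the higher group's UMIs in 10 barcodes were set apart. After the values were seen the rule was also applied outside the products, with the 20 highest and 15 lowest genes. List genes may also be named. Mixture weights came from 300 rounds of a Poisson expectation-maximisation over 40 genes per class, and held-out singlets were fitted with profiles from the remaining singlets. The TMM alternative used edgeR 4.0.16. Ratios and mixture were tested on simulated data. Some items that the rules would name are not reported here.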

Additional observations from a re-analysis of the deposited data

How the results depend on the processing

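No paired analysis was possible because each group is 1 library and no replicate number is given. With a Lyz1 limit of 600 there were 141 Paneth-rich multiplets, and with Lyz1 left out of the denominator 226. Against other multiplets, 1916 genes were higher and 2764 lower under TMM scaling, 1915 and 2766 under median-of-ratios scaling, and 2476 and 2133 per UMI outside the products. Without a count filter 803 were higher, and at 200 UMIs 94. Against Paneth singlets, counts were 579 higher and 265 lower under TMM, 528 and 293 under median of ratios, 517 and 314 outside the products, 269 and 24 at 200 UMIs, and 465 and 26 at a fold of 2. Scaling reversed Muc2 against other multiplets, at 0.395 times per UMI of the total but 1.36 (TMM), 1.36 (median of ratios) and 1.52 (outside products), and Olfm4, at 0.603 but 2.08, 2.08 and 2.31. Against other multiplets at least as deep as the lower quartile of Paneth-rich multiplets, a choice made after seeing the data, Olfm4 was at 1.196; the sets restricted to 30% of product UMIs and the mixture without products were added in the same way. Genes over prediction were 9 higher and 11 lower at 500 UMIs and 17 higher with 80 genes per class. Paneth with Stem was called in 28.5% at a weight of 0.10, 9.05% at 0.25 and 14.9% at the Lyz1 limit of 600, and in 17.8% to 23.1% under the other alternatives with 10 classes. The stem list against Paneth singlets was at 5.41 with barcodes weighted equally. Of 186 gene ratios under alternatives 179, and of 120 list ratios 114, kept their side of 1. The gene tally takes in settings that change only the count filter, which cannot move a ratio. It also takes in products, whose direction against other multiplets follows from the rule. The 7 gene ratios that changed side were those of Muc2 and Olfm4 against other multiplets. The cause of these shifts was not tested beyond the changed totals. Depth limits genes under 50 UMIs, and 88 Paneth singlets limit every share set beside them.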
